A study of Mus musculus with 6 samples.

Results

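The genes described here are 44 genes of the G1/S step and of DNA replication. They were chosen by name for their roles, with earlier results of these data known, as were the other gene lists below. They cover the cyclin E genes and E2f1, the proteins that mark and load replication origins, the MCM helicase and its activators, the polymerases and primase, the sliding clamp and its loader, the single-strand binding proteins, the enzymes that join Okazaki fragments, the enzymes of nucleotide supply, and the factors that rebuild chromatin behind the fork. All 44 were among the 21761 genes of the deposited count table, and all 44 passed the filter on low counts, which left 12807 genes to test.

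The study asked what re-expression of IMP1 (Igf2bp1, a fetal RNA-binding protein that is switched off in adult blood stem cells) does in adult mouse long-term haematopoietic stem cells, abbreviated LT-HSCs. The IMP1 group had the genotype Rosa26 I/+;Mx1-Cre tg/+, an Imp1 allele at the Rosa26 locus together with an interferon-inducible Cre, and the Control group had the genotype Rosa26 +/+;Mx1-Cre tg/+, so both groups carried the Cre and both received PolyIC, the inducer of that Cre. Whole marrow of both genotypes (allotype CD45.2) was grown in lethally irradiated CD45.1/2 hosts, and 200 cells of the surface type CD45.2+ LSK CD150+ CD48- CD34- were sorted for each library 8 weeks after the last PolyIC injection, with RNA amplified by a SMARTer kit for low input. There were 3 libraries of each genotype, which the labels call biological replicates, and the labels give no age for the animals. Mx1-Cre acts in any cell that responds to interferon, the transplant limits it to donor cells, and the labels do not say how host cells, whose allotype also includes CD45.2, were gated out.

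A cell that leaves G1 makes cyclin E, which activates the kinase CDK2, and releases E2F transcription factors from the retinoblastoma proteins. E2F factors then switch on most of the genes considered here. ORC, CDC6 and CDT1 load MCM2-7 rings at origins in G1, CDC45 and GINS turn the loaded rings into moving helicases in S phase, and PCNA, set on the DNA by the RFC loader, holds the polymerases on their template. LT-HSCs are known as largely quiescent cells, in which these genes are low compared with dividing progenitors.

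The E2F binding site is the sequence that most of these promoters are known for, so it is shown first. RefSeq promoter sequences (build GRCm38.p6) were matched by symbol for 37 of the 44 members, and the 250 bases before each annotated start were searched on both strands for the words TTTCCCGC, TTTGGCGC, TTTCGCGC and TTTGCCGC, where words on opposite strands can overlap and each is then counted. At least 1 of these 4 words was in the window of 9 of the 37 genes (24.3%), against 3.95% of all tested genes with a promoter. In the lists described further on, the share was 14.3% of the other replication genes, 33.3% of the G1/S regulators and 4.76% of the G2 and mitosis genes. The windows of Mcm6 (chr1:128359706-128359955, minus strand), Mcm5 (chr8:75109259-75109508, plus strand) and Pola1 (chrX:93632156-93632405, minus strand) are printed 5′ to 3′ on the gene's own strand, because they hold words in the known forms and overlap no annotated exon. Capitals mark the words.
Mcm6: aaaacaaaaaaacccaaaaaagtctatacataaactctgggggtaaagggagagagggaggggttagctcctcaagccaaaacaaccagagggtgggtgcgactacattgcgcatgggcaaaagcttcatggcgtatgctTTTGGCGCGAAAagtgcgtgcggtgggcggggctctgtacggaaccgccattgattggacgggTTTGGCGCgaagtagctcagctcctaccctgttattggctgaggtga
Mcm5: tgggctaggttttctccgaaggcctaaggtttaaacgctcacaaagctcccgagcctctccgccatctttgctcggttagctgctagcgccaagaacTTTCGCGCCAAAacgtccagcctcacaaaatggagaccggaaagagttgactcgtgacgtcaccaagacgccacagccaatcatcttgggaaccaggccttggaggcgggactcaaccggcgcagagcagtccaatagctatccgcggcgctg
Pola1: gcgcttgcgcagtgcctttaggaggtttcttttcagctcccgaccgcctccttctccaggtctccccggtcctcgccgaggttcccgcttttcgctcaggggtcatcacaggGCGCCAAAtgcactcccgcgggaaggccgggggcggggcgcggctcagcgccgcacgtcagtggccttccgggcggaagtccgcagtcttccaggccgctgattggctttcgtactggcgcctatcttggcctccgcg
Mcm6 and Mcm5 each hold a pair of overlapping words, one on each strand, and Mcm6 holds another word closer to its start.

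Short stretches around the words of 5 further members are given for the same purpose, since Mcm7 and Rfc3 are among the genes with the lowest p-values below and Cdc6 and Orc1 among those that varied most between libraries. The words begin 165 bases before the start in Mcm7, 10 in Rfc3, 138 in Cdc6, 27 in Orc1 and 185 in Uhrf1. Of the 250 bases of these windows, 250 lay in annotated exons in Mcm7, 34 in Rfc3, 81 in Cdc6, 164 in Orc1 and 0 in Uhrf1. Mcm7 and Uhrf1 each have another annotated start, with no word in its window.
Mcm7: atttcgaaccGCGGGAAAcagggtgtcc
Rfc3: cgtcgcacgcTTTCGCGCtc
Cdc6: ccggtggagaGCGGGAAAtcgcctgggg
Orc1: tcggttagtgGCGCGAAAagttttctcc
Uhrf1: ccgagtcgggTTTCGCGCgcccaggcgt
The ninth gene with a word was Gins3. A match is a description of letters in a window and no evidence of binding, and a window with no match may hold a variant that was not searched. The median log2 fold change of IMP1 over Control was -0.29 in the 9 members with a word and -0.23 in the 28 without one, and 8 of the 9 and 19 of the 28 were negative. At least 1 window with the CCAAT word was found for 62.2% of the 37 members, against 40.9% of all tested genes with a promoter, and 1 with TTTGAA or TTCGAA, forms of the element known from mitotic promoters, for 16.2% of the members, against 15.2%. In the lists described further on, CCAAT was found for 85.7% of the G2 and mitosis genes, 52.4% of the G1/S regulators and 42.9% of the other replication genes. For TTTGAA or TTCGAA these shares were 42.9%, 23.8% and 22.9%.

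The libraries held 50220629 to 67083116 counts in the IMP1 group and 25749898 to 27338450 in the Control group, so every IMP1 library was deeper than every Control library. Igf2bp1 had 1870, 2084 and 2016 counts in the IMP1 libraries and 0, 0 and 1 in the Control libraries. All 10 LT-HSC markers listed were detected, with summed levels of 2653 to 3206 CPM in IMP1 and 2614 to 2666 CPM in Control. Cd34, which the sort selected against, was detected at 141 to 212 CPM in IMP1 and 263 to 317 CPM in Control. All levels in the text are CPM, counts per 1000000 of a library, scaled by TMM, a method that sets libraries on a common scale from the bulk of their genes. Sequencing depth moved with the group, and with every library thinned to 25749898 counts the median log2 fold change over the members was -0.24, the same as without thinning.

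No member passed the test between IMP1 and Control at an adjusted p of 0.05, by edgeR's quasi-likelihood test with Benjamini-Hochberg adjustment over all 12807 genes, in a comparison that called 27 genes, or 0.211%. The lowest adjusted p of a member in that edgeR fit was that of Rfc2, at 0.0831. DESeq2 called 3 of the 44 members, Rfc2, Mcm3 and Tk1, each lower in IMP1, and 694 of all 12807 genes. The members' share of DESeq2 calls was thus near that of all tested genes. Of the 44 members, 33 had a negative log2 fold change (75.0%), where 47.84% of all tested genes did, and the median was -0.24 against 0.03 over all tested genes. At an unadjusted p under 0.05, 9 members were lower in IMP1 (20.45%), where 7.63% of all tested genes were, and 1 was higher, where 6.67% were. The groups did not overlap, with all IMP1 libraries below all Control libraries, for 9 members, where 11.2% of all tested genes did so, and 1 member lay entirely above, where 10.7% did. The count of 9 lower members was 14 without IMP1 replicate 1, 4 without IMP1 replicate 2, 5 without IMP1 replicate 3, 5 without Control replicate 1 and 4 without Control replicate 3. It was 5 when libraries were scaled by total counts alone, and 5 when each library's trend with transcript length and GC content was removed first. The median was -0.05 without Control replicate 1 and -0.10 without IMP1 replicate 2, and it was negative with any single library left out.

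**Figure D1:**
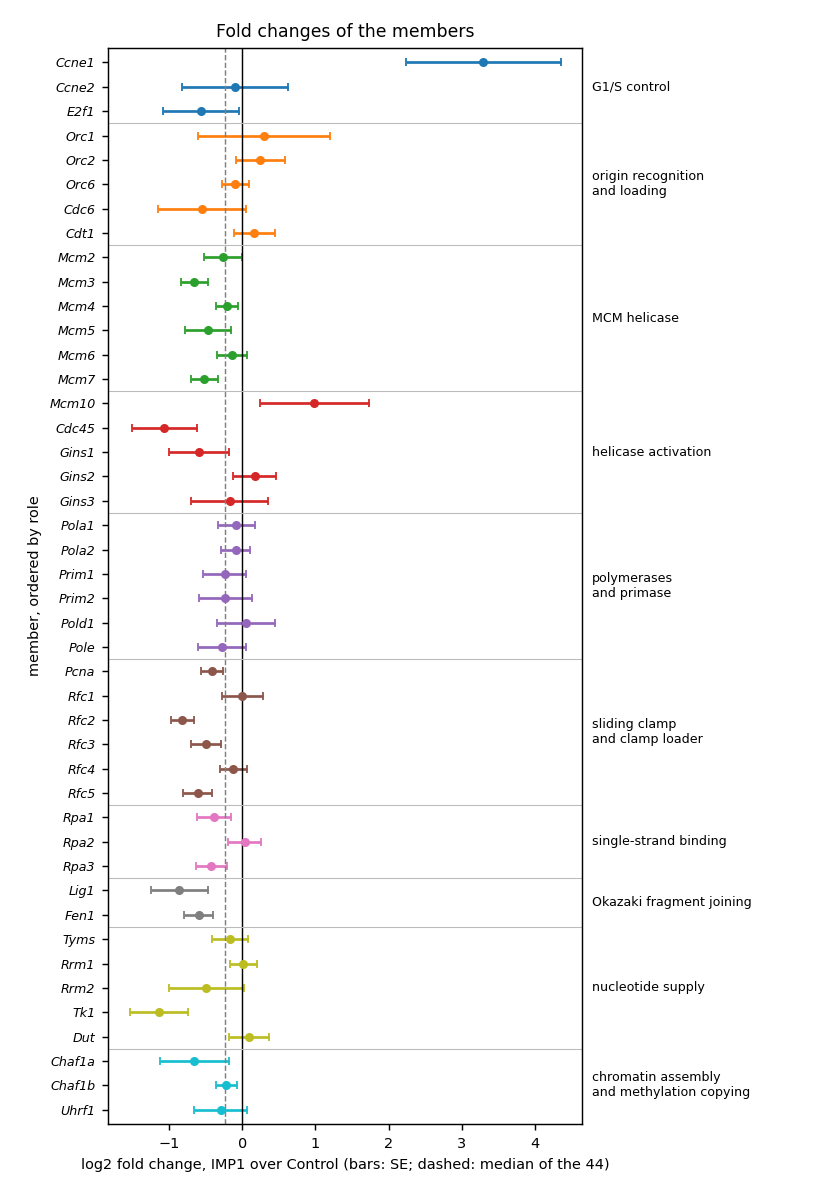
Log2 fold change of IMP1 over Control for each of the 44 members (x axis), grouped by role down the page; points are edgeR estimates and bars their standard errors. Most points lie left of 0, around the dashed median of -0.24, while Ccne1 stands far to the right at 3.29.

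Cyclin E and E2F1 act at the entry into S phase. Ccne1 encodes cyclin E1, the partner of CDK2, and had 400, 120 and 268 counts in the IMP1 libraries against 26, 5 and 4 in the Control libraries. Scaled for depth, this was 6.27, 1.73 and 5.16 CPM in IMP1 against 0.976, 0.198 and 0.160 CPM in Control. All IMP1 libraries lay above all Control libraries, and Ccne1 was the one member with that pattern, although IMP1 replicate 2 was less than 1 CPM above Control replicate 1. Its log2 fold change was 3.29 ± 1.06 (SE, n = 3 each), with an adjusted p of 0.227 by edgeR's quasi-likelihood test and 0.0597 by DESeq2, within 0.0597 to 0.413 over the 16 alternatives that tested it, since the stricter filter removed Ccne1. Ccne2, for cyclin E2, had 14.9, 1.90 and 14.8 CPM in IMP1 against 15.1, 11.2 and 7.44 CPM in Control. Here IMP1 replicate 2 was the lowest of all and the other IMP1 libraries stood near the highest Control library. E2f1, the activator of many of the genes that follow, had 10.2, 7.14 and 5.99 CPM in IMP1 against 15.8, 12.9 and 5.56 CPM in Control, and the groups overlapped at a log2 fold change of -0.56 ± 0.52 (SE).

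Origin recognition and MCM loading gave no common direction, with 3 of 5 genes positive and a median log2 fold change of 0.17. Orc1, the largest ORC subunit and the one that comes and goes with the cycle, had 21.7, 2.02 and 2.69 CPM in IMP1 against 4.39, 8.35 and 8.72 CPM in Control. Its positive log2 fold change of 0.30 rested on IMP1 replicate 1: without that library it was -1.60. Orc2, a core ORC subunit, had 55.1, 45.3 and 28.6 CPM in IMP1 against 49.4, 24.9 and 34.2 CPM in Control. Orc6, the smallest ORC subunit, had 122, 90.5 and 93.8 CPM in IMP1 against 120.5, 117 and 89.8 CPM in Control. Both overlapped over most of their range. Cdc6, the ATPase that brings MCM rings to ORC, had 84.0, 12.1 and 34.7 CPM in IMP1 against 78.4, 70.7 and 41.9 CPM in Control. IMP1 replicate 1 was the highest of all 6 libraries for Cdc6 and IMP1 replicate 2 the lowest, and the log2 fold change of -0.55 ± 0.60 (SE) was -1.44 without IMP1 replicate 1 and -0.10 without IMP1 replicate 2. Cdt1, the other loading factor, was within 34.6 to 38.3 CPM in IMP1 and 21.8 to 38.5 CPM in Control.

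All 6 subunits of the MCM2-7 helicase ring had a negative log2 fold change, with a median of -0.36, and none passed the edgeR test. Mcm3 had 195, 140.2 and 177 CPM in IMP1 against 311, 289 and 206 CPM in Control. Every IMP1 library was below every Control library, with a log2 fold change of -0.65 ± 0.19 (SE, n = 3 each), and the adjusted p was 0.178 by edgeR's quasi-likelihood test and 0.0162 by DESeq2, within 0.0162 to 0.369 over all alternatives. Mcm7 had 237, 172 and 201 CPM in IMP1 against 364, 251 and 257 CPM in Control. These groups also did not overlap, with a log2 fold change of -0.51 ± 0.18 (SE), which was -0.32 without Control replicate 1, and an adjusted p of 0.266 by edgeR. Mcm6 had 460.3, 289 and 314 CPM in IMP1 against 481, 363 and 329.5 CPM in Control, and its log2 fold change of -0.14 was within its SE of 0.21. Mcm2, Mcm4 and Mcm5 had overlapping groups and log2 fold changes of -0.26, -0.21 and -0.47. The summed level of the 6 subunits was 1377, 931 and 1129 CPM in IMP1 against 1797, 1336 and 1261 CPM in Control, so IMP1 replicate 1 lay above both of the lower Control libraries. The ring holds 1 copy of each subunit. The estimates ran between -0.65 for Mcm3 and -0.14 for Mcm6, and differences between subunits were not tested.

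Among the factors that activate the loaded helicase, Cdc45 and Mcm10 had estimates of opposite sign. Cdc45, the helicase subunit whose arrival starts unwinding, had 48.6, 25.9 and 13.1 CPM in IMP1 against 53.9, 49.7 and 79.4 CPM in Control. No IMP1 library reached a Control library, at a log2 fold change of -1.06 ± 0.45 (SE), which was -1.64 without IMP1 replicate 1, and an adjusted p of 0.335 by edgeR. Mcm10, which acts at the step from loaded to active helicase and is not part of the ring, had 29.4, 9.63 and 6.87 CPM in IMP1 against 6.80, 2.65 and 13.8 CPM in Control. The groups overlapped at 0.98 ± 0.74 (SE), and IMP1 replicate 1 was far above the other libraries, without which the estimate was 0.10. Of the GINS subunits, Gins2 had 44.8, 31.1 and 41.8 CPM in IMP1 against 43.0, 23.5 and 38.2 CPM in Control, with overlapping groups. Gins1 and Gins3 overlapped too, with log2 fold changes of -0.59 and -0.17, and the difference between GINS subunits was not tested.

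Of the 6 polymerase and primase genes 5 were negative, and log2 fold changes ran between -0.27 for Pole, the catalytic subunit of the leading-strand polymerase, and 0.05 for Pold1, that of the lagging-strand polymerase. Pola2, the accessory subunit of polymerase alpha, had 93.3, 141 and 91.0 CPM in IMP1 against 118, 119 and 109.6 CPM in Control, and it was the 1 member of the 44 for which IMP1 replicate 2 was the highest IMP1 library. Prim1, the catalytic primase subunit, had 116, 63.8 and 116 CPM in IMP1 against 152, 82.5 and 114 CPM in Control. Pola1, the catalytic subunit of polymerase alpha whose promoter is printed above, averaged 55.6 ± 15.3 CPM in IMP1 and 58.7 ± 7.97 CPM in Control (SD, n = 3 each). All 6 had overlapping groups.

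The sliding clamp and its loader held 4 of the 9 members that were lower at an unadjusted p under 0.05. Pcna, the clamp that encircles DNA, had 308, 230.3 and 244 CPM in IMP1 against 369.8, 299 and 372 CPM in Control. IMP1 replicate 1 lay just above Control replicate 2, and the log2 fold change was -0.41 ± 0.15 (SE, adjusted p 0.269 by edgeR). Rfc2, a small subunit of the clamp loader, had 224, 148 and 191 CPM in IMP1 against 342, 342 and 307 CPM in Control. The gap between the groups, from 224 CPM at the top of IMP1 to 307 CPM at the bottom of Control, was wider than the range within either group. Its log2 fold change was -0.82 ± 0.16 (SE, n = 3 each), with an adjusted p of 0.0831 by edgeR's quasi-likelihood test, 0.0424 by the same test on the genes left by a stricter filter and 8.11e-05 by DESeq2, and the range over all 17 alternatives was 8.11e-05 to 0.218. Rfc5 had 87.0, 69.8 and 54.1 CPM in IMP1 against 102, 102 and 117 CPM in Control, and Rfc3 had 78.8, 69.1 and 86.3 CPM in IMP1 against 90.7, 99.3 and 141 CPM in Control. Both were without overlap, at log2 fold changes of -0.61 ± 0.20 and -0.50 ± 0.20 (SE) and adjusted p of 0.239 and 0.317 by edgeR, and Rfc3 was at -0.28 without Control replicate 3. Rfc4 and Rfc1, which complete the loader, overlapped at -0.12 and 0.00, and differences between the 5 loader subunits were not tested. The summed level of the clamp and loader genes was 984, 696 and 774 CPM in IMP1 against 1153, 1098 and 1118 CPM in Control, a mean of 818 ± 149 CPM against 1123 ± 27.8 CPM (SD, n = 3 each), with no overlap.

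**Figure D2:**
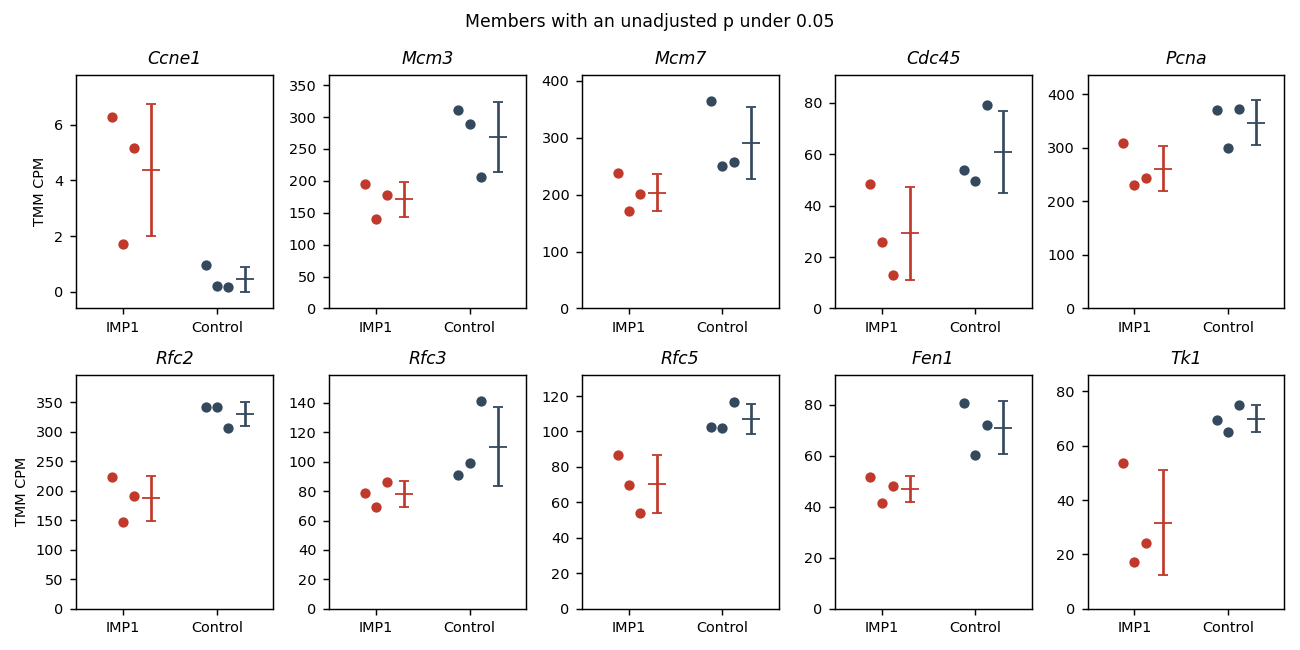
TMM-scaled CPM (y axis of each panel, linear) of the 10 members with an unadjusted p under 0.05; dots are libraries, IMP1 left of Control, and bars are the mean and SD of 3. Only Ccne1 is higher in IMP1, and Pcna is the one gene of the 10 whose groups overlap.

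Replication protein A, the trimer that coats single-stranded DNA, had a median log2 fold change of -0.39. Rpa1, the large subunit, had 124, 70.8 and 93.9 CPM in IMP1 against 152, 107 and 118 CPM in Control, and IMP1 replicate 1 lay above the lower Control libraries. Rpa2 had 141, 117 and 147 CPM in IMP1 against 180.4, 105 and 109.9 CPM in Control, within the spread of both groups. Rpa3 is named outside the rule, after its values were seen, because it is the ninth member whose groups do not overlap: it had 74.4, 47.0 and 51.0 CPM in IMP1 against 77.5, 77.6 and 75.8 CPM in Control. Its highest IMP1 library was close to the Control libraries, and its unadjusted p in the edgeR fit was 0.0846. Of the genes that finish Okazaki fragments, Fen1, the flap endonuclease, had 51.6, 41.4 and 48.2 CPM in IMP1 against 80.8, 60.2 and 72.1 CPM in Control. The groups did not overlap, at -0.59 ± 0.20 (SE) and an adjusted p of 0.242 by edgeR. Lig1, the ligase that seals the fragments, had 77.3, 28.7 and 50.7 CPM in IMP1 against 130.5, 64.5 and 88.8 CPM in Control. IMP1 replicate 1 overlapped the lowest Control library, and the adjusted p was 0.369 at a log2 fold change of -0.86 ± 0.38 (SE) by edgeR, an estimate that was -0.56 without IMP1 replicate 2 and -0.55 without Control replicate 1.

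The 5 genes of nucleotide supply had a median log2 fold change of -0.16, with 3 negative. Tk1, the thymidine kinase of the salvage pathway, had 53.8, 17.2 and 24.2 CPM in IMP1 against 69.5, 65.2 and 75.1 CPM in Control. The Control libraries were close to each other and all above the IMP1 libraries, which spread more widely. The log2 fold change of -1.14 ± 0.40 (SE, n = 3 each) was the most negative of the 44, with an adjusted p of 0.255 by edgeR's quasi-likelihood test and 0.0452 by DESeq2, within 0.0452 to 0.455 over all alternatives. Without IMP1 replicate 1 the estimate was -1.75. Tyms, thymidylate synthase of the de novo route to the same nucleotide, had 225, 119.7 and 161 CPM in IMP1 against 231, 155 and 181 CPM in Control. Rrm1, the large subunit of ribonucleotide reductase, had 244, 164 and 195 CPM in IMP1 against 238, 175 and 183 CPM in Control. For both, the spread within each group was wider than the difference of the means. Rrm2, the small subunit whose level follows S phase, spread over 34.3 to 183 CPM in IMP1 and 108 to 151 CPM in Control, and Dut, the dUTPase, over 79.2 to 169 CPM in IMP1 and 91.0 to 123 CPM in Control.

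Behind the fork, CAF-1 puts histones on new DNA and UHRF1 recruits the maintenance DNA methyltransferase. Chaf1b had 162, 119.6 and 139 CPM in IMP1 against 163, 155 and 171 CPM in Control, and Chaf1a 22.5, 16.1 and 11.6 CPM in IMP1 against 22.5, 13.6 and 43.0 CPM in Control. Uhrf1 had 108, 48.4 and 80.3 CPM in IMP1 against 146, 66.9 and 77.2 CPM in Control. All 3 overlapped, with log2 fold changes of -0.22, -0.65 and -0.29, each within 2 SE of 0, and Chaf1a was at -0.11 without Control replicate 3.

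Libraries of one genotype differed among themselves in these genes. IMP1 replicate 1 was the highest IMP1 library for 39 of 44 members and the lowest for 0, where it was highest for 32.86% of all tested genes. IMP1 replicate 2 was the lowest IMP1 library for 34 of 44 members, against 34.85% of all tested genes, and the lowest of all 6 libraries for 28 of 44. In the Control group, replicate 1 was highest for 29 of 44 members, against 31.4% of all tested genes. Control replicate 2 was the lowest Control library for 27 of 44 members, against 36.21% of all tested genes. The members' summed level was 4941, 3165 and 3755 CPM in IMP1, a mean of 3954 ± 905 CPM, against 5692, 4407 and 4651 CPM in Control, a mean of 4916 ± 682 CPM (SD, n = 3 each). IMP1 replicate 1 thus lay above both of the lower Control libraries, and the median SD of a member within a group, on the log2 scale, was 0.41 in IMP1 and 0.35 in Control, against 0.34 in each over all tested genes.

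**Figure D3:**
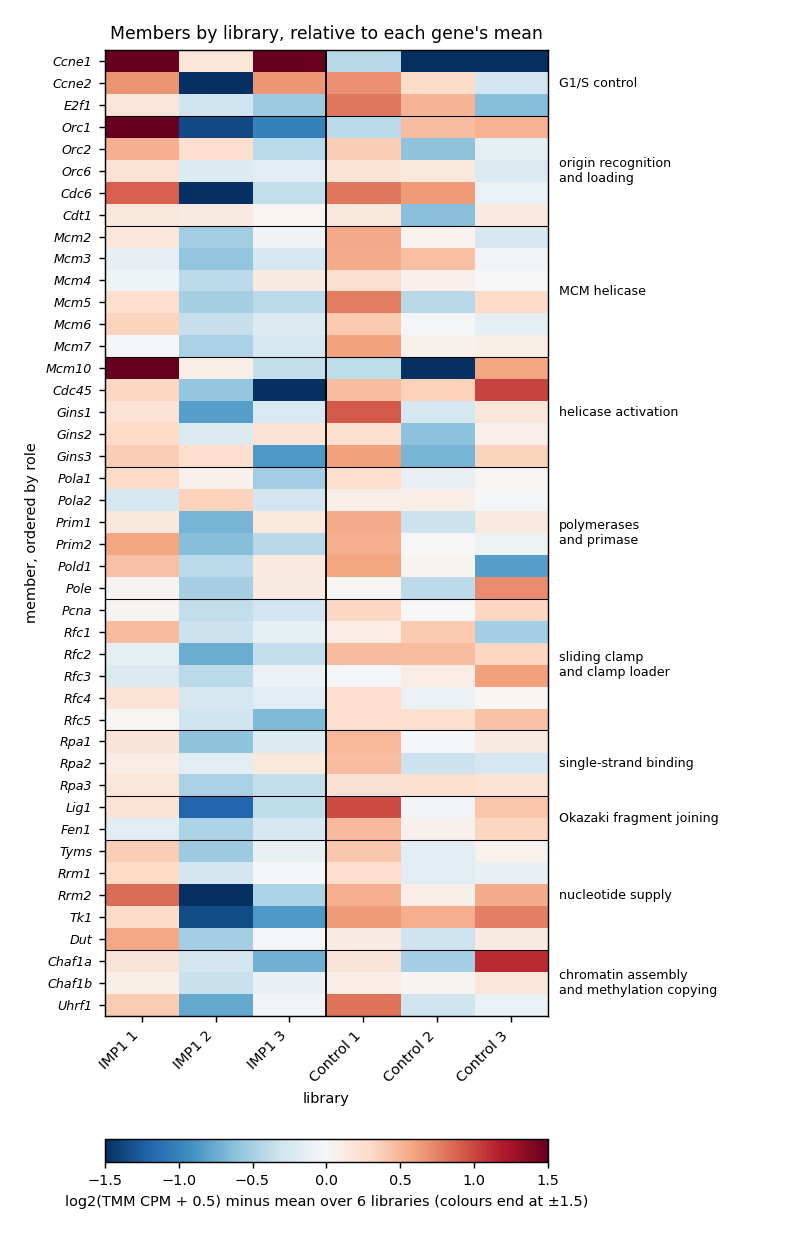
Log2 level (CPM plus 0.5) of each member in each library minus that gene's mean over the 6 libraries (colour scale), with members by role down the page and IMP1 libraries left of Control. Blue is below and red above the mean, and the scale ends at 1.5 either way. The column of IMP1 replicate 2 is mostly blue, being lowest of all 6 libraries for 28 of 44 members, and its median is -0.44, against 0.22 in IMP1 replicate 1 and 0.40 in Control replicate 1.

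Markers of other blood cells differed between the same libraries. The 6 erythroid markers in the table summed to 229, 12.2 and 35.3 CPM in IMP1 against 22.3, 21.8 and 24.0 CPM in Control, and the 8 granulocyte markers to 848, 502 and 228 CPM in IMP1 against 285, 273 and 312 CPM in Control. IMP1 replicate 1, the library highest in replication genes among the IMP1 libraries, was also highest in both sums, with Car1 at 146 CPM there against at most 14.5 CPM in any other library. The granulocyte markers did not go one way. S100a8, S100a9 and Ngp, of later granulocytes, had log2 fold changes of 3.99, 5.29 and 3.82. S100a8 had 242, 170 and 11.4 CPM in IMP1 against 9.46, 12.0 and 5.24 CPM in Control, and S100a9 188, 106 and 4.72 CPM against 1.95, 4.47 and 1.24 CPM. Ngp had 172, 10.8 and 4.24 CPM in IMP1 against 2.065, 2.57 and 8.60 CPM in Control, and its estimate fell as low as 0.78 with 1 library left out. Prtn3 and Mpo, of earlier granulocytes, were lower in every IMP1 library, Mpo at 0.0314, 0 and 0 CPM in IMP1 against 25.3, 7.40 and 0.360 CPM in Control. None of the 5 was called by edgeR, while DESeq2 called S100a8, S100a9 and Mpo. The 5 mast cell markers summed to 2.74, 14.7 and 2.45 CPM in IMP1 against 44.9, 37.9 and 36.0 CPM in Control, with no overlap. Fcer1a held most of the Control sum and was alone in having no overlap. Cpa3 had overlapping groups, at 0.376, 14.69 and 2.445 CPM in IMP1 against 7.735, 13.57 and 14.68 CPM in Control. Mcpt8 and Ms4a2 had counts in Control replicate 1 only, and 1 of the 5 markers was at 0 in every library. The 5 megakaryocyte markers summed to 420, 261 and 218 CPM in IMP1 against 641, 321 and 366 CPM in Control. The 3 genes the sort selects against or that mark later progenitors, Cd48, Cd34 and Flt3, summed to 269, 155 and 174 CPM in IMP1 against 294, 327 and 284 CPM in Control. Cd34 alone carried that difference, at a log2 fold change of -0.75, while Cd48 and Flt3 had overlapping groups at 0.73 and 0.84. B cell markers summed to 71.6 to 114 CPM, mostly from Cd79b, with Cd79a at 16.9 CPM and Ebf1 at 14.2 CPM in IMP1 replicate 2 and under 0.1 CPM in every other library, T cell markers to 10.8 to 31.1 CPM, mostly from Lck, and macrophage markers to 20.0 to 33.9 CPM over all libraries. The part of these differences in the members' values was not tested, and in libraries from bulk RNA fewer cells of a type and less RNA per cell cannot be told apart.

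Per length of transcript, Pcna had the highest level of the 44 in both groups, 172 ± 27.4 CPM per kb in IMP1 and 228 ± 27.3 in Control (SD, n = 3 each). Ccne1 was among the lowest, at 2.19 ± 1.18 CPM per kb in IMP1 and 0.222 ± 0.230 in Control, and Orc1 stood at 2.92 ± 3.70 in IMP1 and 2.37 ± 0.796 in Control. Within the MCM ring the order by mean was Mcm6, Mcm7, Mcm4, Mcm3, Mcm5 and Mcm2 in IMP1, with 81.4 ± 21.2 CPM per kb for Mcm6 and 27.4 ± 6.53 for Mcm2. In Control it was Mcm7, Mcm6, Mcm3, Mcm4, Mcm5 and Mcm2, with 98.1 ± 21.5 CPM per kb for Mcm7 and 32.9 ± 9.66 for Mcm2. Mcm6 was above Mcm7 in all 3 IMP1 libraries and Mcm7 above Mcm6 in all 3 Control libraries, with gaps between the means no larger than the wider of the SDs of the pair, and this difference was not tested. In the clamp loader the Rfc2 level was 37.5 ± 7.66 CPM per kb in IMP1 and 66.1 ± 4.05 in Control, and that of Rfc4 66.0 ± 11.9 in IMP1 and 71.8 ± 9.32 in Control. These subunits lay apart in IMP1, while in Control the gap was within the SD of Rfc4 but beyond that of Rfc2. The difference between the groups in this gap was not tested.

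**Figure D4:**
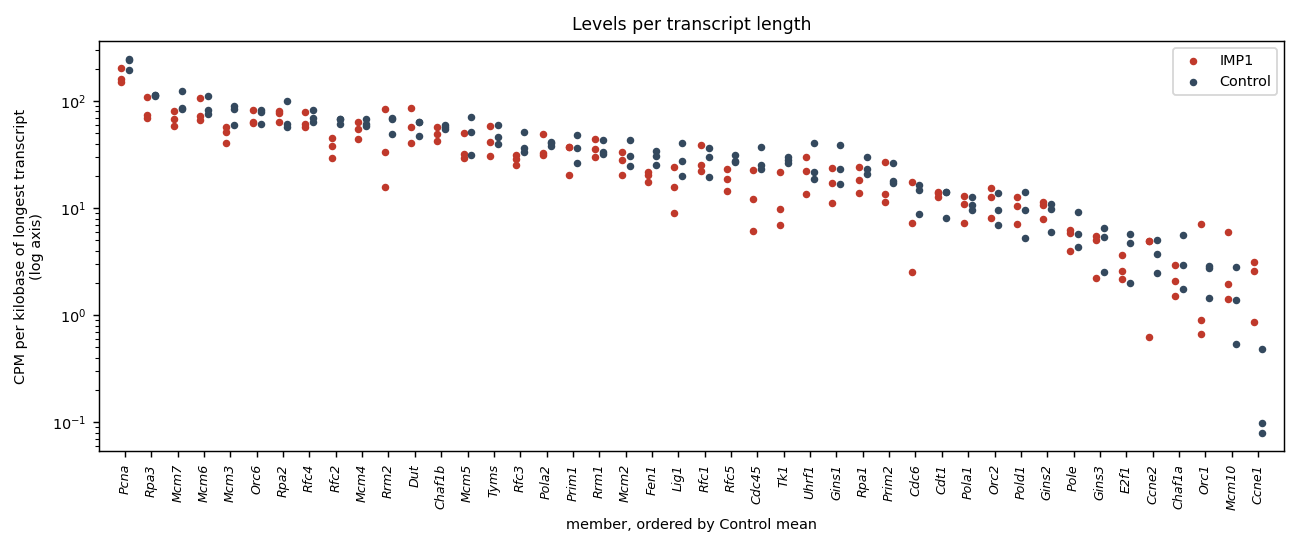
Level per length (CPM per kb of the longest annotated transcript, log axis) of each member, 1 point per library, IMP1 left of Control, with members ordered by their Control mean. Pcna is highest in both groups, at means of 172 in IMP1 and 228 in Control, and Ccne1 is lowest in Control at 0.222.

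Other genes of replication, a second list of 44 with further ORC and polymerase subunits, helicase activators, fork protection factors, nucleotide enzymes and histone chaperones, gave 24 negative and 20 positive estimates and a median log2 fold change of -0.12. None was called by edgeR, while at an unadjusted p under 0.05 there were 5 lower (11.36%) and 1 higher (2.273%), where 7.63% and 6.67% of all tested genes were. Asf1b, a histone chaperone of replicating cells, had 51.7, 35.8 and 60.3 CPM in IMP1 against 95.9, 80.6 and 114 CPM in Control. It was without overlap, at a log2 fold change of -0.97 ± 0.24 (SE) and an adjusted p of 0.123 by edgeR's quasi-likelihood test and 0.00506 by DESeq2 (0.00506 to 0.309 over all alternatives). It was the one gene of that list called by DESeq2. Pold4, the small subunit of polymerase delta, had 34.2, 38.0 and 38.6 CPM in IMP1 against 55.0, 65.0 and 52.8 CPM in Control, again without overlap. Topbp1, which links replication start to the ATR checkpoint, was on the other side, with 67.8, 68.6 and 79.5 CPM in IMP1 against 55.9, 32.3 and 53.3 CPM in Control. Pold4 had an adjusted p of 0.207 and Topbp1 of 0.309 by edgeR.

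The regulators upstream of the members were split evenly. Of 28 cyclins, kinases, inhibitors, retinoblastoma and E2F genes, 14 were on the positive and 14 on the negative side, the median log2 fold change was 0.06 and edgeR called none, and the genes with an unadjusted p under 0.05 were 6 above (21.43%) and 4 below Control (14.29%), where 6.67% and 7.63% of all tested genes were. Cdkn1c, the CDK inhibitor p57 known for its part in stem cell quiescence, had 17.5, 25.5 and 21.6 CPM in IMP1 against 5.22, 7.28 and 7.72 CPM in Control. Ccnd1, cyclin D1, which starts the phosphorylation of the retinoblastoma proteins, had 14.7, 8.07 and 17.6 CPM in IMP1 against 3.72, 3.84 and 4.24 CPM in Control. Skp2, the ubiquitin ligase subunit that marks the inhibitor p27 for decay, had 52.6, 27.5 and 25.8 CPM in IMP1 against 13.7, 9.69 and 15.2 CPM in Control. All 3 were higher in every IMP1 library than in any Control library, at log2 fold changes of 1.68 ± 0.37, 1.78 ± 0.48 and 1.46 ± 0.37 (SE) and adjusted p of 0.0991, 0.154 and 0.136 by edgeR. DESeq2 called these 3 and 2 more that are named only for that call, Rbl2 at 0.70 and Cdkn1b, the gene of p27, at -0.80.

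Genes of G2 and mitosis stood on the other side of the background from the replication genes. Of 25 such genes, 24 had a positive log2 fold change with a median of 0.91, an unadjusted p under 0.05 was found for 14 higher and 0 lower genes, where 6.67% and 7.63% of all tested genes had one, and none was called by edgeR. DESeq2 called 8 of the 25, and 694 of all 12807 genes. Aurka, the centrosome and spindle kinase, had 30.0, 18.5 and 29.2 CPM in IMP1 against 12.9, 5.22 and 9.32 CPM in Control. Ube2c, the ubiquitin-conjugating enzyme of the anaphase-promoting complex, and Cenpa, the histone of centromeres, were likewise without overlap, at log2 fold changes of 2.08 and 1.14 and adjusted p of 0.0851 and 0.0991 by edgeR. The summed level of the 25 genes divided by that of the 44 members, a ratio that does not depend on how libraries are scaled, was 0.359, 0.304 and 0.414 in IMP1 against 0.156, 0.159 and 0.181 in Control. The mean ratio was 0.359 ± 0.0547 in IMP1 and 0.165 ± 0.0139 in Control (SD, n = 3 each), with no overlap. IMP1 replicate 2, lowest in replication genes, was also lowest of the IMP1 libraries in the sum of G2 and mitosis genes, at 963 CPM against 1773 and 1554 CPM, yet above all Control libraries, which held 699 to 886 CPM.

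**Figure D5:**
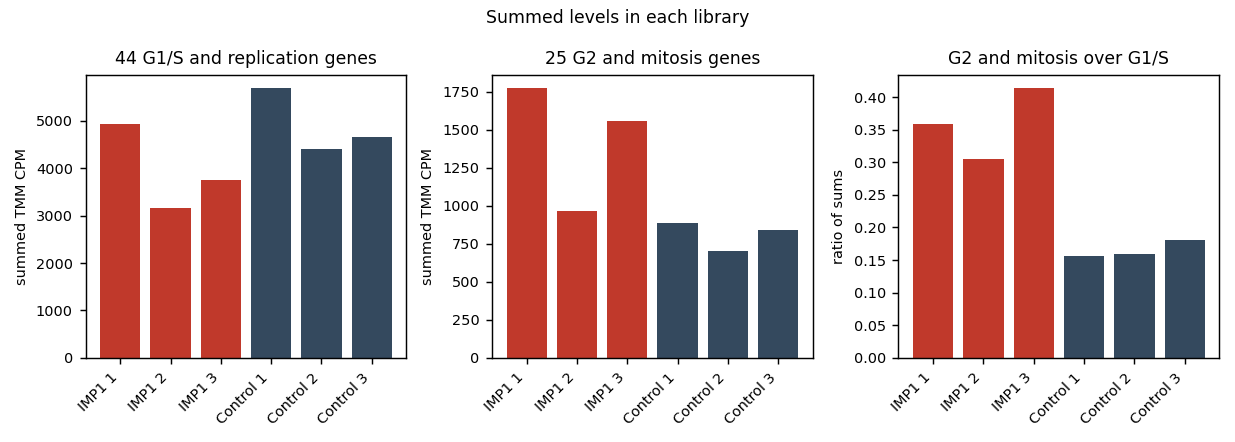
Summed level in CPM (y axes, starting at 0) of the 44 members and of the 25 G2 and mitosis genes, and the ratio of the second sum to the first, with 1 bar per library and IMP1 left of Control. The members' sums overlap between groups, while the ratio is 0.304 to 0.414 in IMP1 and 0.156 to 0.181 in Control.

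Some members overlap other genes or have near copies, and the strand setting of the authors' counting is not given in the sources used here. Mcm7 overlaps Ap4m1, Tk1 overlaps Afmid, Orc1 overlaps Prpf38a, Ccne2 overlaps Ints8, Rpa1 overlaps Smyd4, Cdc45 overlaps Ufd1, Fen1 overlaps Tmem258, Lig1 overlaps Zswim9, E2f1 overlaps Necab3, Gins2 overlaps Gse1, Rfc4 overlaps Eif4a2 and Chaf1a overlaps Ubxn6 in the annotation of build GRCm38.p6, and Pcna and Tyms have annotated pseudogenes, so reads of these genes could be split or shared. Their values carry that uncertainty. Rfc2, Mcm3, Rfc5 and Ccne1 had no such partner in the annotation searched.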

How the data were processed

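RNA of sorted LT-HSCs was sequenced in 3 IMP1 and 3 Control libraries. The deposited table holds the authors' unnormalised counts of reads, with genes by Entrez identifier and a column for each library. Per the submitters' processing notes, TopHat2 2.0.10 and the mouse build mm9 were used, at steps that are not stated. The counting program, its annotation, its strand setting and the handling of multiply matching reads are not given in the sources used here. The library kit amplifies cDNA and has no molecular identifiers, so counts are reads and not molecules, and the spread of low genes includes amplification.

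Columns were matched to libraries by header name. Symbols came from a RefSeq table (GRCm38.p6), which matched 21615 of 21761 identifiers, and the 146 unmatched ones held 0.0645% of counts. The comparison was fitted in R 4.3.3 with edgeR 4.0.16 (filterByExpr, TMM, quasi-likelihood F test, Benjamini-Hochberg adjustment over 12807 genes, threshold 0.05), and the script was tested on simulated data. CPM values are TMM-scaled, and SDs are over 3 libraries. P-values set the difference between the genotypes against the spread between these libraries. Levels per kb use the longest annotated transcript of each gene, which may be longer than the one present. Sums and ratios of lists are given with no test.

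The members and lists were chosen with earlier results of these data known. Named members had an unadjusted p under 0.05, the 5 largest folds in either direction, or the 2 highest levels of their role, and named genes of other lists the 3 lowest p-values. Members outside the rule are named for their printed promoters, for completing a role, or where stated. Alternatives were DESeq2 1.42.0, limma-voom (limma 3.58.1), edgeR without legacy settings, other scalings and filters, thinning, removal of the length and GC trend, a replicate block and leaving out each library. Libraries of a group differed by more than counting noise, which does not show whether any came from the same animal.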

Additional observations from a re-analysis of the deposited data

How the results depend on the processing

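The count of genes called in all was 694 by DESeq2, 11 by limma-voom, 49 by edgeR with legacy settings off, 16 with scaling by total counts, 115 with the stricter filter (at least 5 CPM in 3 libraries), 4 with the replicate block, 13 with the length and GC trend removed and 0 to 2 with 1 library left out, against 27. Members called were 3 by DESeq2 and 1 with the stricter filter, against 0, other replication genes called were 1 and G1/S regulators 5 by DESeq2, against 0 each. The members lower at an unadjusted p under 0.05 were 5 with scaling by total counts, 5 with the trend removed and 4 to 14 with 1 library left out, against 9, and those higher were 0 by limma-voom, 0 with the stricter filter, which removed Ccne1 and tested 43 members, and 0 to 1 with 1 library left out, against 1. Positive members were 6 to 17 with 1 library left out, against 11. The members' median log2 fold change stayed negative under every alternative run, and was -0.15 with scaling by total counts, where the median of all tested genes was 0.12.

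Over all tested genes, same-numbered IMP1 and Control libraries did not deviate together (correlations 0.0149, 0.031 and -0.00831). The members' sums, however, ranked alike by number, at 4941, 3165 and 3755 CPM in IMP1 and 5692, 4407 and 4651 CPM in Control. Under the replicate block 4 genes and 0 members were called, and 12 members were lower at an unadjusted p under 0.05 by edgeR, against 9. Whether same-numbered libraries belong together was not tested. No member was called in the edgeR fit of all libraries, so keeping a side of the threshold meant staying uncalled. Fits with 1 library left out called few genes of any kind, so they had little room to move a member across. Of 492 combinations of a named member and an alternative, 467 kept direction and side of the threshold, 4 passed it (Mcm3, Rfc2 and Tk1 by DESeq2, Rfc2 with the stricter filter) and 21 turned sign. Orc1 was -0.45 by limma-voom, -0.68 under the block and -1.60 to 0.77 with 1 library left out, Orc6 0.003 with the trend removed, Pola2 0.003 with total counts, and Rrm1 -0.14 with the trend removed. With 1 library left out, Pola2 ran over -0.33 to 0.022, Rrm1 -0.15 to 0.17, Ccne2 -0.43 to 0.40, Mcm6 -0.37 to 0.035, Gins2 -0.048 to 0.35, Rpa2 -0.10 to 0.33, Tyms -0.42 to 0.032 and Uhrf1 -0.59 to 0.13. The causes were not tested. In simulated counts with 3 libraries a group, the edgeR fit called 25.3% of changes of size 1 on the log2 scale and 72.2% of changes of size 3. It also called 5 genes that had been given no change. With 3 libraries a group, changes of size 1 in single members would thus often be missed, and larger ones could be. Changes smaller than 1 were not simulated.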
